A study of Mus musculus with 31 samples.

Results

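Collagens are the main structural proteins of the extracellular matrix, and the genes described here are the collagen chain genes of mouse brain. They were chosen by name and by depth: a gene symbol made of Col, a number, a and a number, and 10 or more counts in at least 13 of 31 libraries. Of 44 genes with such a symbol in the table, 43 passed, among 48795 genes in all. Col6a6 lay just inside the limit, with 10 or more counts in 15 libraries and a median of 9 counts, and Col28a1 just outside it, with 12 libraries and a median of 9 counts. The study exposed mice during development to the pyrethroid insecticide deltamethrin, which keeps neuronal sodium channels open, and sequenced total RNA of homogenised brain in 13 control and 18 deltamethrin libraries. The labels give the agent and the tissue alone, with no dose, age, sex, strain, litter or batch, and they do not say whether the libraries came from separate animals, so every p-value here measures the spread between these libraries, which may be technical. Libraries are named by group and by a number in sample order.

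Collagen molecules are triple helices of chains built from Gly-X-Y repeats. Fibrillar collagens assemble into the cable-like fibrils of connective tissue, which in brain lie mostly in the meninges and around larger vessels, whereas type IV chains form the sheet-like network of basement membranes under endothelium and at the glial surface. FACIT collagens decorate fibrils, type VI chains form beaded microfibrils, multiplexins sit at basement membranes and release anti-angiogenic fragments, and transmembrane collagens span the cell membrane, some of them in neurons.

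The type IV genes Col4a1 and Col4a2 encode the chains of the most widespread basement membrane network and are transcribed away from each other on chromosome 8. Col1a2 encodes a chain of type I collagen, and Col3a1 that of type III, the fibrillar collagen of distensible tissues. Their promoters, from RefSeq on GRCm38.p6, are shown because the first pair is tied by position and the results below turn on all 4 genes. Each window runs from 250 bases before to 50 bases after the start of the gene, 5′ to 3′ on its own strand: chr8:11312777-11313076 (minus) for Col4a1, chr8:11312555-11312854 (plus) for Col4a2, chr6:4505368-4505667 (plus) for Col1a2 and chr1:45311288-45311587 (plus) for Col3a1. Capitals mark matches to motifs, on either strand, where a match on the other strand reads as its reverse complement. The first motif searched was the CCAAT box, by those letters. For the TATA box the letters were TATAAA. For the GC box, known for binding Sp1, they were GGGCGG.
Col4a1: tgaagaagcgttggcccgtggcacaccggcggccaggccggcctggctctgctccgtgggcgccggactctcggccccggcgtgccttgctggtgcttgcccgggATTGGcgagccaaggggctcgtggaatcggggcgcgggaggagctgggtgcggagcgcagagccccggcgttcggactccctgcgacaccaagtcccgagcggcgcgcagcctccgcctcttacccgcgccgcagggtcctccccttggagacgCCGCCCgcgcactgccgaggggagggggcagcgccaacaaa
Col4a2: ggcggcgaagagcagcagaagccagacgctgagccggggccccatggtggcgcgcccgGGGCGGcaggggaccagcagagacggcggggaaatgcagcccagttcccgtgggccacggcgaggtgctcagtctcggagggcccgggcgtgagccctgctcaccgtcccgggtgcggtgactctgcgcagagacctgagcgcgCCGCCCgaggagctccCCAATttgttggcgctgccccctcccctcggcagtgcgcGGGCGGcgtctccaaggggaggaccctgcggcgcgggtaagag
Col1a2: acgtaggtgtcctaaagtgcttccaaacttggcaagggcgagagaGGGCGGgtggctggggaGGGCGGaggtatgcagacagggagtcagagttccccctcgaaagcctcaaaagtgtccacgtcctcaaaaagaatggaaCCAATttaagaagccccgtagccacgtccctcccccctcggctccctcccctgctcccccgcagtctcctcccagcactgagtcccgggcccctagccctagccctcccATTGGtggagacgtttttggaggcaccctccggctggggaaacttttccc
Col3a1: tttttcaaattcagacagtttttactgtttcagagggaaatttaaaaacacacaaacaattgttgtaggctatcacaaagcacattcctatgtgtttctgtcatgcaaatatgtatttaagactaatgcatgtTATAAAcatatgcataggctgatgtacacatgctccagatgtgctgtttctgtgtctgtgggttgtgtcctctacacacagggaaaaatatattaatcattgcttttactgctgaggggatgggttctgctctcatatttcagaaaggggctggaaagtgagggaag
The windows of Col4a1 and Col4a2 shared 78 bases, and their starts lay 21 bases apart. Their GC content was 74.0% and 73.7%, against 61.0% for Col1a2 and 37.7% for Col3a1. The Col4a1 window held 1 CCAAT and 1 GGGCGG, and the Col4a2 window 1 CCAAT and 3 GGGCGG. The GGGCGG of Col4a1 lies in the shared bases and is also among the 3 of Col4a2, so the same site counts in both windows. The Col1a2 window held 2 CCAAT and 2 GGGCGG, and the Col3a1 window 1 TATAAA and neither of the others. Over 37 windows of the 34 collagen genes matched by symbol, GGGCGG was found in 23 (62.2%), CCAAT in 13 (35.1%) and TATAAA in 5 (13.5%). Over all 32851 windows of that table the shares were 35.7%, 37.4% and 13.6%. A match is a description of the letters and not a site of binding.

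Collagen mRNA was scarce in these libraries. The 43 genes together took 2363 to 10961 counts of a library, or 0.013% to 0.033% of all its counts. Library totals ran from 17570311 to 38680621 counts. Mitochondrial rRNA took 7.32% to 40.2% of a library, and control 2 stood apart with the highest share, the lowest total and a scaling factor of 0.613. The summed collagen level, in CPM (counts scaled to 1 common depth), was 158 to 318 in control (median 219) and 162 to 288 in deltamethrin (median 200.3), so the groups overlapped over most of their range. In bulk tissue, fewer cells of a type and less RNA per cell cannot be told apart.

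Per kilobase of exon, the collagens at the top were not all those of meninges and vessels. The median RPKM (CPM divided by kilobases of exon) over 31 libraries was highest for Col9a3 (3.02), a cartilage-associated FACIT chain, whose exons share 234 bases with those of Tcfl5 on the opposite strand. It was followed by Col4a2 (2.65), Col6a1 (2.49), Col4a1 (2.23), Col9a2 (2.21), Col25a1 (2.20), Col19a1 (1.83) and Col11a2 (1.41). The library ranges of these neighbours overlapped, from 1.71 to 4.69 for Col9a3 and from 1.57 to 3.60 for Col4a1, so their order is not firm. The length used joined all annotated exons of a gene. It was 12947 bases for Col25a1 and 12426 for Col1a2, against 6701 and 5348 in their longest protein-coding transcripts. For Col9a3 it was 3853 against 3046, so the order also rests on the length used. Col25a1 encodes a membrane collagen of neurons that also binds amyloid plaques, and Col19a1 a FACIT chain found in subsets of interneurons.

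The chains that define fibrils stood much lower. Within the fibrillar class the median RPKM fell from Col11a2 through Col5a1 (0.809), Col1a1 (0.483), Col1a2 (0.419), Col27a1 (0.326), Col5a3 (0.217), Col11a1 (0.208), Col24a1 (0.189), Col5a2 (0.143) and Col2a1 (0.125) to Col3a1 (0.110). In CPM Col1a2 (median 5.20) lay above Col1a1 (3.17), so the order of these chains here rests on exon length. Within type IV, Col4a1 and Col4a2 stood well above Col4a5 (0.290), Col4a6 (0.0808), Col4a4 (0.0783) and Col4a3 (0.0532). The multiplexins were at 1.01 (Col18a1) and 0.414 (Col15a1). Of the type VI genes, Col6a2 (0.480) followed Col6a1, and Col6a3 (0.153), Col6a4 (0.144), Col6a5 (0.0429) and Col6a6 (0.0334) lay lower. The remaining FACIT genes were Col16a1 (0.920), Col12a1 (0.373), Col20a1 (0.324), Col14a1 (0.182), Col22a1 (0.124) and Col9a1 (0.0741). The exons of Col20a1 share 79 bases with those of BX649560.1 on the same strand. Over all libraries BX649560.1 had 6883 counts and Col20a1 1618, so the Col20a1 level is uncertain. The other transmembrane genes were Col23a1 (0.999), Col17a1 (0.249) and Col13a1 (0.144). The network and anchoring collagens and unlike types were Col8a2 (0.769), Col26a1 (0.439), Col8a1 (0.363), Col10a1 (0.124) and Col7a1 (0.0851). Per length, the most abundant type IV, transmembrane and FACIT chains thus had higher median levels than types I and III.

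**Figure D1:**
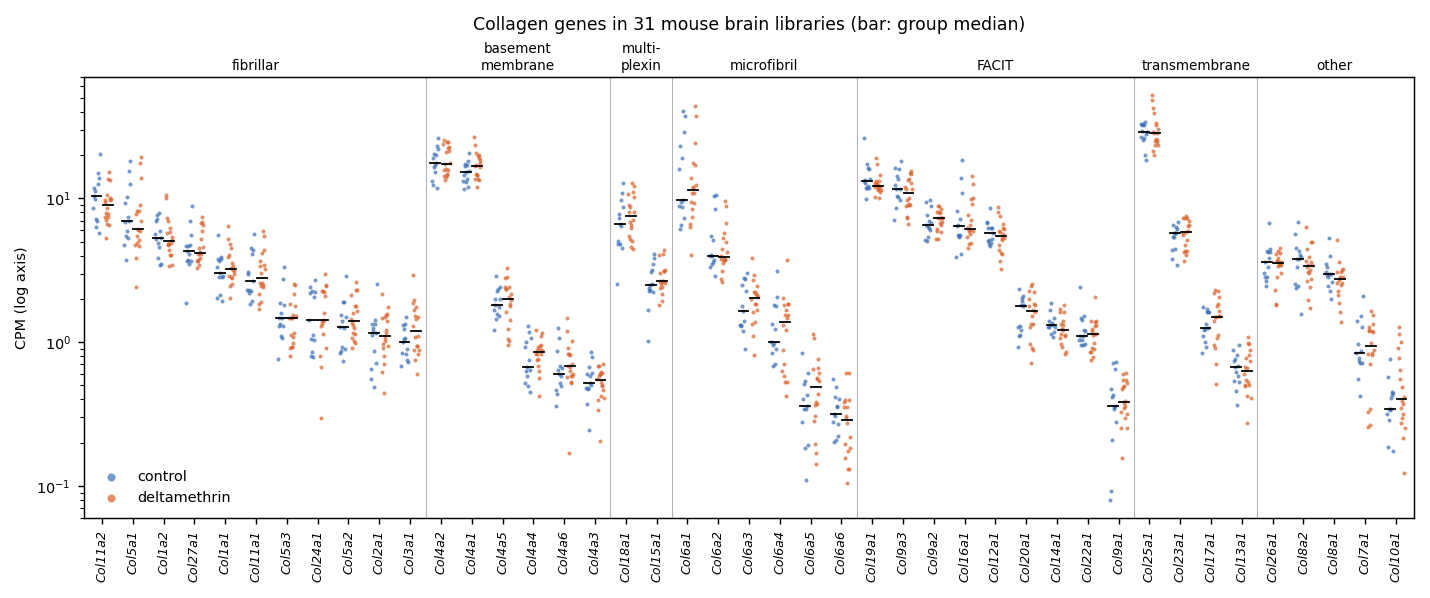
CPM of each of the 43 collagen genes (log axis) in 13 control and 18 deltamethrin libraries, by class and in order of level within a class. Each point is a library and each bar a group median; the groups overlap for every gene, and Col6a1 spreads most widely among the abundant genes, from 4.07 to 44.1 CPM.

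The comparison of deltamethrin with control asked whether the exposure changed these genes. None of the 43 had an adjusted p under 0.05 in edgeR's quasi-likelihood test over 19529 genes, and the smallest adjusted p among them was 0.813. The background share was 0%, since no gene of the whole table passed either (smallest adjusted p 0.441). At an unadjusted p under 0.05, 1 of the 43 passed (Col3a1, higher) by edgeR, 0 by limma voom and 1 by DESeq2. The background at that threshold was 4.37% of all genes by edgeR, 2% higher and 2.37% lower, so 1 of 43 is near it. By sign alone 25 collagens were higher and 18 lower (41.9%, against 49.5% of all genes), and the median log2 fold change was 0.023 against 0.0014 over all genes. The split by sign moved with the method. Of the 43, 22 were lower with limma voom, 21 with the mitochondrial rRNA share as a covariate and 16 without scaling factors.

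The fibrillar and basement membrane classes were looked at apart. Of 11 fibrillar genes 8 were higher and 3 lower in deltamethrin, with a median log2 fold change of 0.031 and a range from -0.22 to 0.38. Of 6 type IV genes 5 were higher and 1 lower, with a median of 0.088 and a range from -0.083 to 0.18. The summed level of the fibrillar genes was 29.3 to 73.6 CPM in control (median 38.4) and 30.5 to 61.8 CPM in deltamethrin (median 38.1). That of the type IV genes was 27.0 to 52.0 CPM in control (median 37.5) and 28.3 to 56.5 CPM in deltamethrin (median 38.0). In both classes the group medians lay within 1 CPM of each other, far inside the range of either group.

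Col3a1, the type III chain, was read at a median of 31 counts a library (range 9 to 99). Its level was 0.679 to 1.504 CPM in control (median 1.01) and 0.600 to 2.94 CPM in deltamethrin (median 1.20), and 11 of 18 deltamethrin libraries lay above the control median. Deltamethrin 2 held the highest value, and the lowest values of both groups were close. The log2 fold change was 0.38 ± 0.18 (SE; unadjusted p = 0.0459, edgeR adjusted p = 0.813). The unadjusted p was over 0.05 in 17 of the 31 fits that left out 1 library, with a log2 fold change of 0.28 (p = 0.102) without deltamethrin 2, and with limma voom (0.31, p = 0.103). Deltamethrin 2 also held the highest summed levels of the pericyte, endothelial, bone or cartilage, astrocyte (744 CPM) and oligodendrocyte (5149 CPM) marker lists, and the part of these in the Col3a1 value was not tested.

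Type I collagen, the main fibril of meninges and adventitia, was measured through both its chains. Col1a1 stood at 1.93 to 5.59 CPM in control (median 3.05) and 2.02 to 6.45 CPM in deltamethrin (median 3.24). Col1a2 stood at 3.46 to 7.90 CPM in control (median 5.28) and 3.41 to 10.6 CPM in deltamethrin (median 5.04). For both chains the groups overlapped over nearly the whole range, and deltamethrin 2 was again the highest library. The log2 fold change was 0.14 ± 0.15 for Col1a1 (SE; unadjusted p = 0.342) and 0.029 ± 0.15 for Col1a2 (p = 0.853), and Col1a2 turned to -0.013 with the mitochondrial rRNA share as a covariate. Col11a2, a minor fibril chain best known from cartilage, had the most negative value of the class, -0.22 ± 0.16 (p = 0.167). Its level was 5.76 to 20.4 CPM in control (median 10.4) and 5.35 to 15.2 CPM in deltamethrin (median 9.01).

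Col4a1 had the most positive value of the basement membrane class. Its level was 11.7 to 20.7 CPM in control (median 15.4) and 12.1 to 26.9 CPM in deltamethrin (median 16.8), with 11 of 18 deltamethrin libraries above the control median. The lowest value was that of control 2 and the highest that of deltamethrin 1, and the lower ends of the groups nearly met. The log2 fold change was 0.18 ± 0.10 (SE; unadjusted p = 0.0805, edgeR adjusted p = 0.813). With the mitochondrial rRNA share as a covariate it was 0.15 (edgeR unadjusted p = 0.0448, adjusted p = 0.539). In that fit 1796 of 19529 genes had an unadjusted p under 0.05, against 853 in the fit without it. Without control 13 the log2 fold change of Col4a1 was 0.22 (unadjusted p = 0.0313). Col4a1 also passed unadjusted without deltamethrin 8, 12 or 13.

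Col4a2, the partner chain, had group medians close to each other. It ran from 11.7 to 26.3 CPM in control (median 17.6) and from 13.3 to 25.5 CPM in deltamethrin (median 17.4), with a log2 fold change of 0.059 ± 0.12 (SE; p = 0.616). The range of either group covered nearly that of the other. Col4a3, a chain of the kidney, lung and inner ear network, was read at a median of only 18 counts and had the lowest value of the class, -0.083 ± 0.16 (p = 0.601). It stood at 0.245 to 0.855 CPM in control (median 0.520) and 0.205 to 0.705 CPM in deltamethrin (median 0.542). Its exons share 563 bases with a transcript on the opposite strand, so its counts are uncertain if strand was not used.

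**Figure D2:**
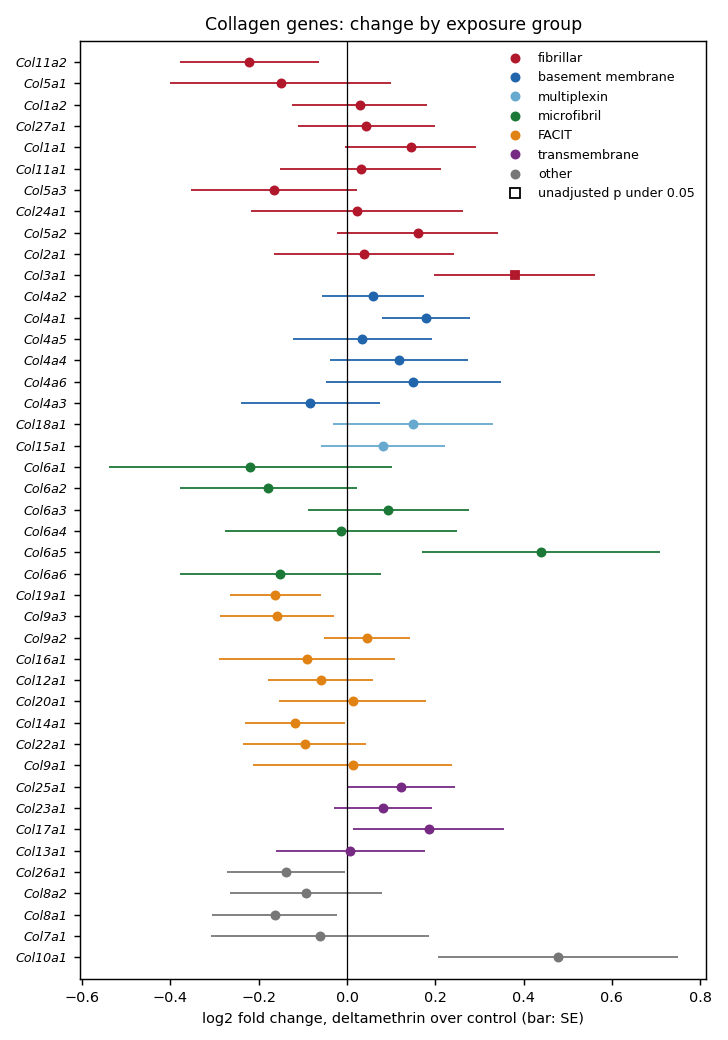
Log2 fold change of deltamethrin over control for each of the 43 collagen genes, with its SE as a bar, from the edgeR fit over all genes. Colour gives the class and the square marks an unadjusted p under 0.05, which Col3a1 alone had; values run from -0.22 (Col11a2) to 0.48 (Col10a1).

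The multiplexins, whose C-terminal fragments include endostatin, were both higher by sign. Col18a1 stood at 2.55 to 12.9 CPM in control (median 6.68) and 4.45 to 12.9 CPM in deltamethrin (median 7.56), with a log2 fold change of 0.15 ± 0.18 (SE; p = 0.417). Col15a1 stood at 1.02 to 4.10 CPM in control (median 2.48) and 1.81 to 4.35 CPM in deltamethrin (median 2.66), with 0.081 ± 0.14 (p = 0.567). The single lowest library of each gene was a control, control 1 for Col18a1 and control 2 for Col15a1. For Col15a1 control 1 (1.68 CPM) also lay below every deltamethrin library, and otherwise the groups overlapped.

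Of the type VI genes 2 were higher and 4 lower, with a median log2 fold change of -0.082. Col6a1 was 6.10 to 40.5 CPM in control (median 9.79) and 4.07 to 44.1 CPM in deltamethrin (median 11.4). High libraries were found in both groups, and the fitted log2 fold change was -0.22 ± 0.32 (SE; p = 0.498) although the deltamethrin median was the higher one. Leaving out 1 library moved it from -0.40 (without deltamethrin 14) to -0.044 (without control 10). Col6a5, a chain known from skin and lung, was read at a median of 12 counts, at 0.109 to 0.836 CPM in control (median 0.360) and 0.141 to 1.13 CPM in deltamethrin (median 0.487). Its log2 fold change was 0.44 ± 0.27 (p = 0.113).

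In the remaining classes no gene passed either threshold. FACIT genes were higher in 3 and lower in 6 cases (median -0.090), transmembrane genes higher in 4 of 4 (median 0.10), and the other types higher in 1 and lower in 4 (median -0.093). Col19a1 had the lowest FACIT value, -0.16 ± 0.10 (SE; p = 0.128), from 9.92 to 26.3 CPM in control (median 13.3) and 10.002 to 19.1 CPM in deltamethrin (median 12.1). Its highest library was control 2, and without it the value was -0.071 (p = 0.420). Col9a2 had the highest FACIT value, 0.045 ± 0.10 (p = 0.643), from 5.02 to 9.68 CPM in control (median 6.56) and 5.22 to 8.89 CPM in deltamethrin (median 7.33). The groups of both genes overlapped throughout apart from that library.

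Col17a1, a transmembrane collagen that anchors epithelial cells, was 0.838 to 1.76 CPM in control (median 1.247) and 0.512 to 2.30 CPM in deltamethrin (median 1.5035), with a log2 fold change of 0.19 ± 0.17 (SE; p = 0.286). Col13a1, a collagen of the neuromuscular synapse, was 0.368 to 0.957 CPM in control (median 0.674) and 0.273 to 1.09 CPM in deltamethrin (median 0.634), with 0.0073 ± 0.17 (p = 0.966). For both, the deltamethrin libraries spread beyond the controls at either end. Col10a1, the collagen of hypertrophic cartilage, was read at a median of 13 counts, at 0.174 to 0.758 CPM in control (median 0.342) and 0.123 to 1.27 CPM in deltamethrin (median 0.402). It had the largest fold change of all 43 (0.48 ± 0.27, p = 0.0873), with deltamethrin 3 highest, and 0.36 without that library. In sample order, deltamethrin 1 to 7 (0.554 to 1.27 CPM) all lay above deltamethrin 8 to 18 (0.123 to 0.490 CPM). The part of sample order in the Col10a1 value was not tested. Col8a1, a network collagen of vessel walls, was 1.995 to 5.31 CPM in control (median 2.97) and 1.38 to 5.10 CPM in deltamethrin (median 2.76), with -0.16 ± 0.14 (p = 0.253), and its groups overlapped.

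Genes that make, hold and cut collagen gave few differences, and none had an adjusted p under 0.05 (0.813 for each one named). Of 27 genes of collagen making tested, 13 were higher and 14 lower (median -0.017), and 2 had an unadjusted p under 0.05, both lower. These were Pcolce2, an enhancer of procollagen processing (7.15 and 6.22 CPM mean in control and deltamethrin, log2 fold change -0.20 ± 0.08 SE, p = 0.0154), and P4ha2, a prolyl hydroxylase chain (7.66 and 6.97 CPM, -0.14 ± 0.07, p = 0.0425). Of 12 fibril partners 9 were higher and 3 lower (median 0.17), and 2 passed unadjusted. Dcn, the proteoglycan decorin that coats fibrils, averaged 7.96 CPM in control and 9.69 CPM in deltamethrin (0.29 ± 0.09, p = 0.00417). Aspn, its relative asporin, averaged 0.638 and 0.808 CPM (0.33 ± 0.16, p = 0.0419). The list medians stand beside 0.0014 for all genes and were not tested. Of all genes 49.5% were lower and 4.37% had an unadjusted p under 0.05 by edgeR.

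Among 15 basement membrane partners 12 were higher and 3 lower (median 0.077). Lama1, a laminin chain of the pial basement membrane, had an unadjusted p of 0.0127, with 2.26 CPM in control, 2.90 CPM in deltamethrin and a log2 fold change of 0.35 ± 0.13 (SE). Of 7 genes of matrix breakdown 6 were higher and 1 lower (median 0.14). Mmp14, a membrane metalloprotease that cuts fibrillar collagen, averaged 5.34 and 6.95 CPM (0.37 ± 0.15, p = 0.0217), and Timp4, a metalloprotease inhibitor, 43.7 and 49.1 CPM (0.17 ± 0.07, p = 0.0225). Of 7 collagen receptors 6 were higher and 1 lower (median 0.093), and none passed unadjusted. These lists too stand beside 49.5% lower and 4.37% passing unadjusted over all genes, and they were not tested as lists.

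Markers of the cells that make collagen were measured beside them. The shares over all genes were 49.5% lower and 4.37% with an unadjusted p under 0.05, and no list was tested as a whole. Of 8 meningeal fibroblast markers tested 4 were higher and 4 lower (median log2 fold change -0.036), none at an unadjusted p under 0.05, and their summed level was 27.4 to 52.0 CPM in control and 28.8 to 55.9 CPM in deltamethrin. Slc47a1 and Foxc2 of that list of 10 were near 0, at a median of 4 counts. Pericyte markers (5 of 7 higher) summed to 91.9 to 162 CPM in control and 99.6 to 182 CPM in deltamethrin, and smooth muscle markers (3 of 4 higher) to 9.51 to 21.2 and 10.8 to 20.1 CPM. Endothelial markers were higher in 7 of 8 cases (median 0.10), with Cldn5 and Kdr at unadjusted p = 0.00407 and 0.0486 (adjusted p = 0.813 for both), and summed to 94.6 to 150 CPM in control and 102 to 178 CPM in deltamethrin. Choroid plexus markers were lower in 8 of 8 cases (median -0.27), with Folr1, Kcne2 and Ttr at unadjusted p = 0.0163, 0.0330 and 0.0360 (adjusted p = 0.813 for each), and summed to 269 to 1300 CPM in control and 249 to 728 CPM in deltamethrin. Of the 7 bone or cartilage markers 3 were tested, 2 higher and 1 lower, and their sum was 1.86 to 10.6 CPM in control and 4.56 to 12.1 CPM in deltamethrin. The 3 tested, Dmp1, Acan and Comp, had medians of 83, 72 and 21 counts. Bglap, Ibsp, Matn1 and Matn3 were near 0, with medians of 2, 2, 5 and 1 counts.

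Markers of other cells were measured in the same way, beside the same shares over all genes (49.5% lower, 4.37% at an unadjusted p under 0.05). Astrocyte markers were higher in 3 of 3 cases (median log2 fold change 0.20) and summed to 329 to 536 CPM in control and 362 to 744 CPM in deltamethrin. Blood markers were lower in 5 of 5 cases (median -0.29) and summed to 492 to 1670 CPM in control and 380 to 1242 CPM in deltamethrin. Neuron markers were divided, 2 higher and 2 lower (median 0.0017), at 1756 to 3669 CPM in control and 2244 to 3463 CPM in deltamethrin. Of 3 oligodendrocyte markers 1 was higher and 2 lower (median -0.0078), at 3103 to 4598 and 3100.3 to 5149 CPM. No gene of these lists had an unadjusted p under 0.05. Of 3 microglia markers 2 were higher and 1 lower (median 0.051), the latter being Tmem119 at an unadjusted p of 0.0117, and the list summed to 40.1 to 74.4 CPM in control and 55.6 to 69.5 CPM in deltamethrin. Of 4 skeletal muscle markers 2 were tested and both were lower (median -0.21), Acta1 at an unadjusted p of 0.0240, with sums of 6.81 to 15.2 and 4.59 to 10.4 CPM. The adjusted p was 0.813 for both Tmem119 and Acta1. The part of these lists in the collagen values was not tested.

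Across libraries, 3 pairs of chains that assemble with each other had the highest r of the 13 planned pairs. Pearson's r of log2 CPM over 31 libraries was 0.92 for Col6a1 and Col6a2 (Spearman's rho 0.81), 0.86 for Col4a1 and Col4a2 (rho 0.88) and 0.74 for Col1a1 and Col1a2 (rho 0.69). By permutation, with adjustment over 13 pairs, the p was 4.33e-05 for the type VI and type IV pairs, whose unadjusted p of 1e-05 is the smallest these permutations can give, and 5.2e-05 for type I. Each pair held within both groups, at 0.93 in control and 0.91 in deltamethrin for type VI, 0.89 and 0.88 for type IV, and 0.73 and 0.76 for type I. Without the 2 libraries farthest from the median, r was 0.89, 0.86 and 0.66. Both genes of a pair share the library and its scaling factor, and the 22 exon bases that Col4a1 and Col4a2 share on opposite strands can be counted for either if strand was not used. Not every partner chain was as close, since Col6a3, the remaining chain of the common type VI molecule, had an r of 0.19 with Col6a1.

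Levels were also compared between the fibrillar and basement membrane classes. Col1a1 correlated with Col4a1 at r = 0.69 (rho 0.68, permutation adjusted p = 5.2e-05; 0.43 in control, 0.83 in deltamethrin, 0.73 without the 2 farthest libraries), a single pair that does not stand for the classes. The r of Col4a1 with other fibrillar genes was 0.66 for Col2a1, 0.63 for Col5a2, 0.58 for Col1a2 and 0.52 for Col5a3 and Col11a2. It was 0.51 for Col3a1 and 0.33 for Col27a1, and ran down to 0.14 for Col11a1, 0.11 for Col5a1 and -0.23 for Col24a1. The r of Col1a1 with Col3a1 was 0.63 (rho 0.59, adjusted p = 0.000279), but 0.26 in control and 0.80 in deltamethrin, and 0.60 without the 2 farthest libraries. The difference between those groups was not tested. Col4a5 and Col4a6, a head-to-head pair on chromosome X 1308 bases apart, reached 0.59 (rho 0.54, adjusted p = 0.000699; 0.56 in control, 0.61 in deltamethrin). Without the 2 libraries farthest from the median r was 0.66 when these were taken by Col4a5 and 0.47 when taken by Col4a6.

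The planned cell markers were Slc6a13, Cldn5 and Ttr. Slc6a13, a transporter of meningeal fibroblasts, correlated with Col1a1 at r = 0.43 (rho 0.41, permutation adjusted p = 0.0236; 0.44 without the 2 farthest libraries), with 0.71 in control and 0.11 in deltamethrin, a difference that was not tested. With Col4a1 its r was 0.23 (rho 0.20, adjusted p = 0.256; 0.15 without 2). Cldn5, the tight junction gene of endothelium, gave 0.26 with Col4a1 (rho 0.33, adjusted p = 0.202; 0.21 without 2) and 0.13 with Col1a1 (rho 0.13, adjusted p = 0.480; 0.24 without 2). Ttr, of choroid plexus, gave -0.19 with Col1a1 (rho -0.058, adjusted p = 0.344; -0.18 without 2). These values rest on the scaling: without scaling factors Slc6a13 gave 0.58 with Col1a1 and 0.51 with Col4a1, and Cldn5 0.45 with Col1a1 and 0.64 with Col4a1.

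Col1a1 and Col4a1 both fell as mitochondrial rRNA took more of the library. The r with the log2 share was -0.72 for Col4a1 (rho -0.68, permutation adjusted p = 4.33e-05; -0.69 in control, -0.80 in deltamethrin, -0.65 without the 2 farthest libraries) and -0.63 for Col1a1 (rho -0.67, adjusted p = 0.000279; -0.47, -0.78 and -0.64). The share was 8.49% to 40.2% in control (median 12.9%) and 7.32% to 26.3% in deltamethrin (median 14.8%), so it did not separate the groups. Over all members 28 of 43 (65.1%) had a negative r with it, against 49.5% of all genes tested.

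Collagen genes that lie close together on a chromosome were compared in the same way. Of 8 pairs of collagen genes within 200000 bases, chosen after the values above were seen, 3 were planned pairs whose r was already known. These were Col6a1 with Col6a2, Col4a1 with Col4a2, and Col4a5 with Col4a6. They alone had a permutation adjusted p under 0.05 over the 8 pairs, which repeats the values above and is no second test. Col4a3 and Col4a4 are also divergent, 71 bases apart, and gave r = 0.096 (rho 0.13, adjusted p = 0.789; 0.14 in control, 0.091 in deltamethrin, 0.32 without 2), at medians of 18 and 24 counts a library. Col3a1 and Col5a2, 24614 bases apart, gave 0.050 (rho 0.0069, adjusted p = 0.789; -0.29 in control, 0.14 in deltamethrin, -0.079 without 2). The other 3 pairs, Col9a1 with Col19a1, Col6a5 with Col6a6 and Col6a4 with Col6a5, ran from -0.15 to 0.12.

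**Figure D3:**
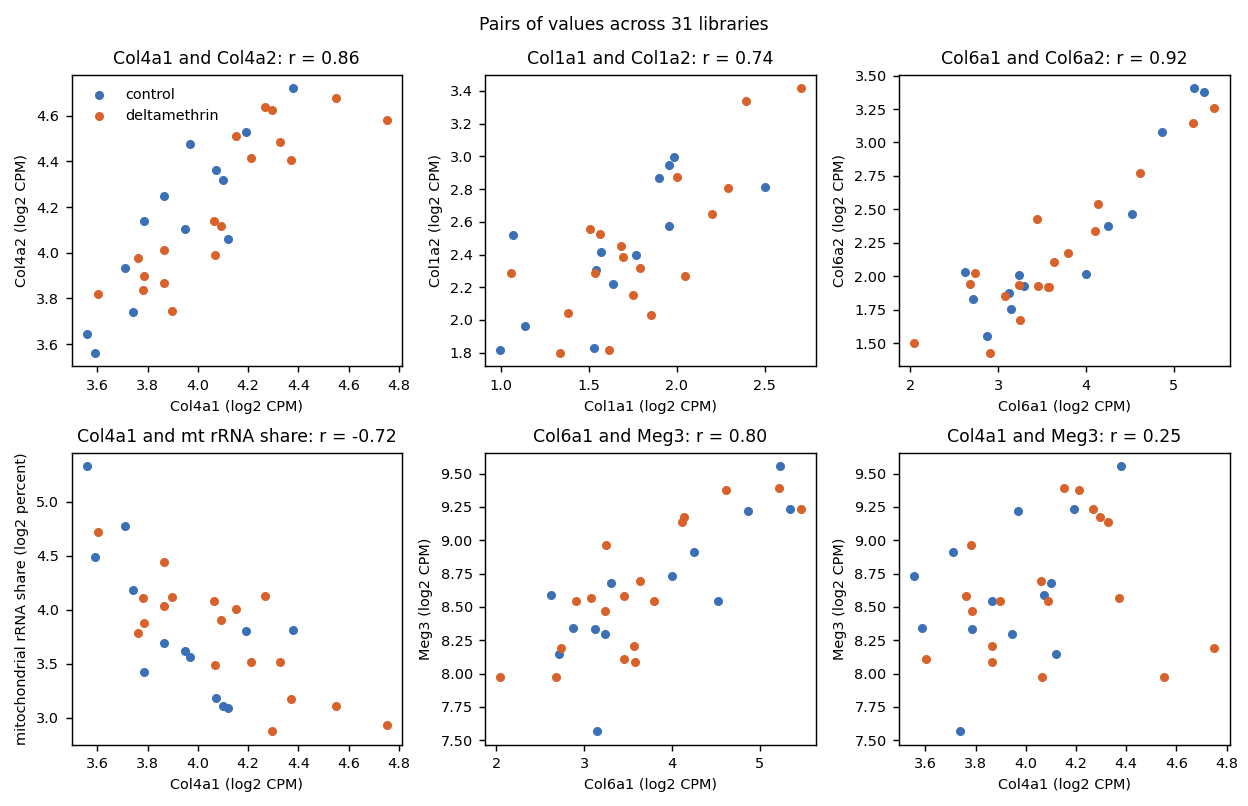
Log2 CPM of gene pairs, and of Col4a1 against the log2 percent of mitochondrial rRNA, in 31 libraries (blue control, orange deltamethrin), with Pearson's r above each panel. Col4a1 with Col4a2, Col1a1 with Col1a2 and Col6a1 with Col6a2 rise together in both groups (0.86, 0.74 and 0.92), while the r of Meg3 is 0.80 with Col6a1 and 0.25 with Col4a1.

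The genes whose level was most like that of Col1a1 over 31 libraries were Pcdh8 (r = 0.81), Aebp1 (0.78), Srebf1 (0.77), Notch1 (0.75), Lamb2 (0.75), Gfap (0.74), Col1a2 (0.74) and Zfp36l2 (0.73). Those most like Col4a1 were Col4a2 (0.86), Cad (0.83), Gcn1l1 (0.82), Snx33 (0.82), Plcg1 (0.80), Gm21984 (0.80), Notch1 (0.79) and Fbxo10 (0.79). Among all genes tested, the partner chain was thus first for Col4a1 and seventh in the list of Col1a1. Notch1, a receptor of endothelial, glial and progenitor cells, stood in both lists. Gfap, the astrocyte filament gene and a marker of the astrocyte list, was level with the partner chain Col1a2 in the list of Col1a1.

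Col6a1 spread most widely among the abundant collagens. Its level differed 10.8-fold between libraries, against 2.30-fold for Col4a1 and 2.24-fold for Col4a2. The highest libraries were deltamethrin 14 (44.1 CPM), control 10 (40.5), control 13 (37.6), deltamethrin 17 (37.3), control 12 (29.2), deltamethrin 16 (24.4) and control 3 (23.0), and the lowest deltamethrin 3 (4.07). High and low libraries were thus found in both groups. The highest, deltamethrin 14, 16 and 17 and control 10, 12 and 13, came late in sample order. The lowest, deltamethrin 1, 2 and 3 and control 4 and 5, came early. Control 3, high but early, and control 11 (7.29 CPM), low but late, went the other way. The labels give no batch, and the part of sample order was not tested.

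The genes most like Col6a1, looked up after its spread was seen, were Akap8l (r = 0.96), Pabpn1 (0.95), Lrrc45 (0.94), Rgs11 (0.94), Ssh3 (0.94), Dennd6b (0.93), Rgl2 (0.93) and Col6a2 (0.92). Col5a1, a fibrillar chain that sets fibril width, followed Col6a1 at 0.91, and its own closest genes were Leng8 (0.94) and the nuclear long non-coding RNAs Firre (0.92) and Miat (0.91) with Ssh3 (0.92). Meg3, a nuclear long non-coding RNA of neurons chosen after these lists were seen, ran from 190 to 753 CPM in control and 251 to 671 CPM in deltamethrin (log2 fold change -0.013, p = 0.942). Its r was 0.80 with Col6a1 (rho 0.76; 0.80 in control, 0.81 in deltamethrin, 0.78 without 2) and 0.87 with Col5a1 (rho 0.86; 0.89, 0.88 and 0.86). Its r was 0.0016 with Col1a1 (rho 0.025; 0.21 in control, -0.16 in deltamethrin, 0.15 without 2) and 0.25 with Col4a1 (rho 0.29; 0.48, 0.13 and 0.41). Since Meg3 was picked with the neighbours of Col6a1 and Col5a1 in view, these values are a description, with no p.

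**Figure D4:**
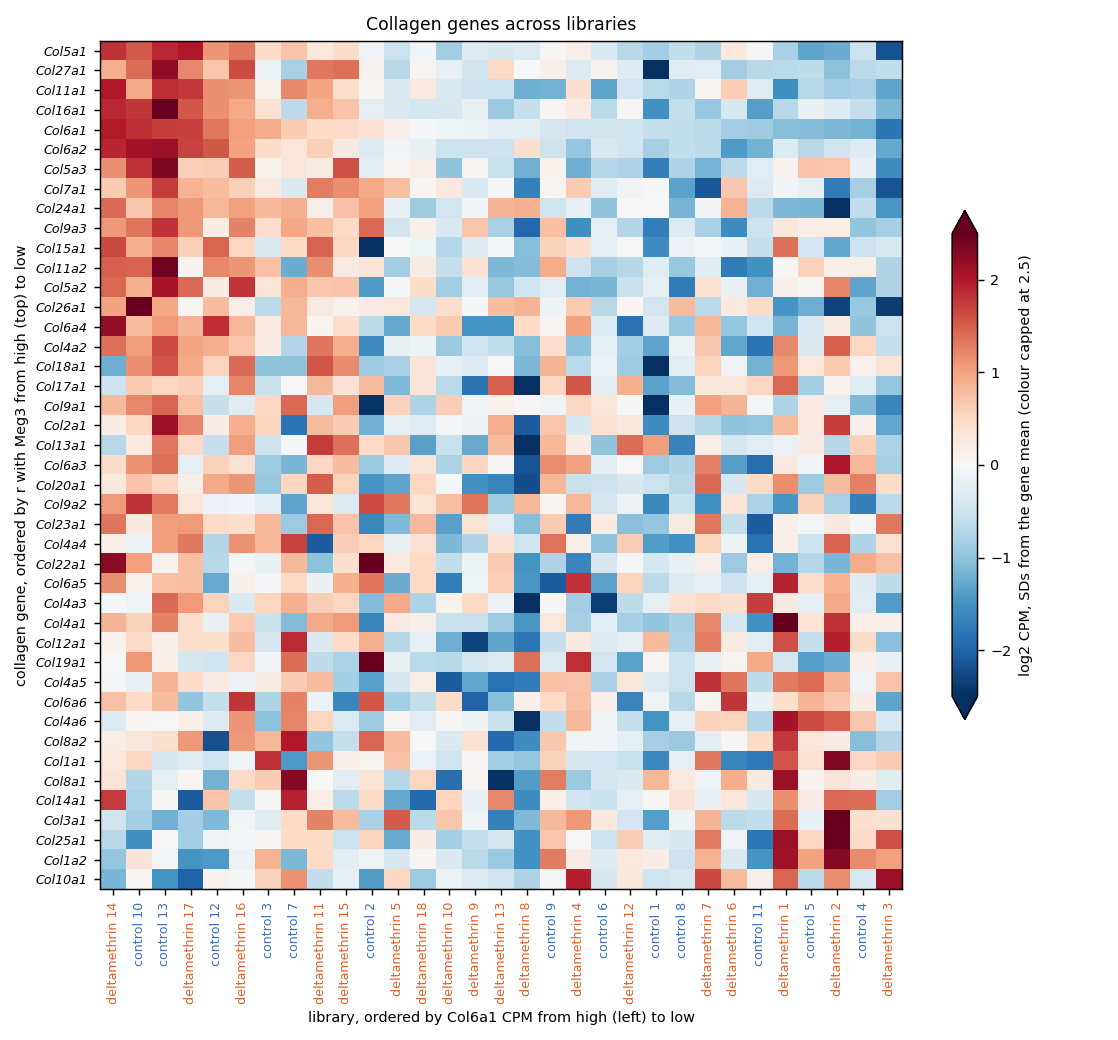
Log2 CPM of the 43 collagen genes (rows, by r with Meg3) in 31 libraries (columns, by Col6a1 level; blue names control, orange names deltamethrin), as SDs from each gene's mean with colour capped at 2.5. The libraries highest in Col6a1, from deltamethrin 14 (44.1 CPM) on the left, are high in the upper rows, and both groups are spread along the order.

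Over all collagens, 18 of 43 (41.9%) had an r with Meg3 above 0.5, against 3.90% of all genes tested. They were 7 of 11 fibrillar genes (Col5a1, Col27a1, Col11a1, Col5a3, Col24a1, Col11a2 and Col5a2), 3 of 6 type VI genes (Col6a1, Col6a2 and Col6a4), both multiplexins, Col16a1 and Col9a3 of 9 FACIT genes, Col7a1 and Col26a1, Col17a1, and Col4a2 (0.53) alone of 6 type IV genes. Col1a2 (-0.30), Col3a1 (-0.17), Col25a1 (-0.21) and Col10a1 (-0.31) lay at the other end. Meg3 was picked with the neighbours of Col6a1 and Col5a1 in view, and both count among the 18. The share of 41.9% is thus a description that partly repeats that choice. The fibrillar class was thus divided, with types I and III apart from types V, XI, XXIV and XXVII and Col2a1 (0.44) between them. Across the 43 genes, r with Meg3 was higher at a higher GC content of the transcript (Pearson 0.45 and Spearman 0.46 across genes, which are not independent replicates). The part of nuclear RNA in this order was not tested.

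**Figure D5:**
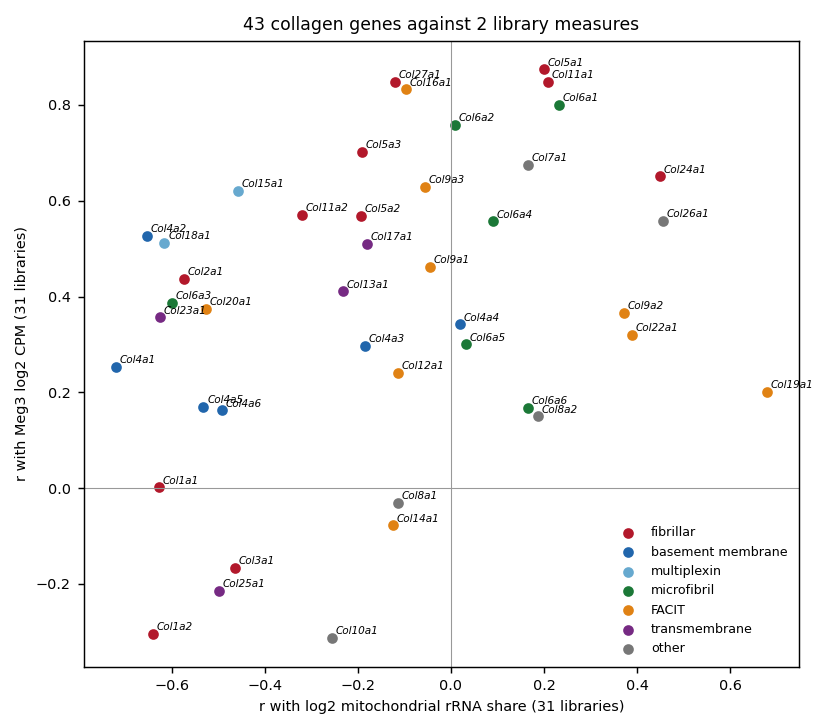
Each of the 43 collagen genes placed by its Pearson's r over 31 libraries with the log2 mitochondrial rRNA share (horizontal) and with Meg3 log2 CPM (vertical), coloured by class. Col1a1, Col1a2, Col3a1 and Col25a1 lie low and to the left, Col4a1 far left (-0.72) and Col19a1 far right (0.68). At the top are Col5a1 (0.87), Col27a1 (0.85), Col11a1 (0.85), Col16a1 (0.83) and Col6a1 (0.80).

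Col19a1 went the other way from Col4a1 with mitochondrial rRNA, at r = 0.68 (rho 0.51; 0.88 in control, 0.41 in deltamethrin, 0.55 without the 2 farthest libraries, control 2 among them). Col1a2 gave -0.64 (rho -0.65; -0.52 in control, -0.76 in deltamethrin, -0.57 without 2). Col6a1 and Col5a1 gave 0.23 and 0.20 with that share (rho 0.30 and 0.25; 0.22 and 0.16 without 2). These 4 genes were picked once their values were known, so no p is given. Col25a1, a membrane collagen of neurons, was most like Nhs (0.93), Pcdh17 (0.92), Kcnn3 (0.92) and Pdgfra (0.92). Its r was 0.79 with Col1a2 and -0.44 with Col6a1. The cells that express Col25a1 in these libraries were not tested.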

How the data were processed

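The authors deposited raw counts per gene from total RNA of homogenised brain, whole numbers with no normalization. The submitters' processing notes name Trimmomatic, HISAT2, SAMtools, MultiQC and GRCm38; the counting tool, annotation and use of strand are not given in the sources used here. Library groups came from the agent label. Coordinates, exon lengths and overlaps came from GENCODE M21 (GRCm38), with 99.1% of gene IDs matched. Promoters came from RefSeq, where Col1a1, Col2a1, Col4a3, Col5a2, Col9a3, Col12a1, Col14a1, Col22a1 and Col26a1 were not matched; protein sequences were not used here. Genes were kept by filterByExpr (minimum count 10, minimum total 15), which left 19529, scaled by TMM factors and tested with edgeR 4.0.16 (R 4.3.3; quasi-likelihood F-test, robust, no covariates, Benjamini-Hochberg adjustment), and the steps were tested on simulated data. SEs were derived from the size of the log2 fold change and F (their ratio, with F under a root). CPM is per scaled library size, and 2 was the prior count for log2 CPM. Correlations used two-sided permutation tests with 100000 resamples, within each family of pairs. Depth limits precision: library totals ran from 17570311 to 38680621 counts, and the common biological variation was 20.2%.

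Values are named for every collagen with an unadjusted p under 0.05, for Col1a1, Col1a2, Col3a1, Col4a1, Col4a2, Col6a1 and Col18a1, and for the largest and smallest fold change of each class; from the pathway lists, genes with an unadjusted p under 0.05; and the 8 genes most like Col1a1 and Col4a1. Any further gene was picked once its values were known. The collagen genes and all lists were chosen with earlier results of these data known. Alternatives were other scaling, filters and tests (DESeq2 1.42.0, limma 3.58.1), covariates and leaving out each library in turn. Marker lists were those of meningeal fibroblast, pericyte, smooth muscle, endothelial, choroid plexus, blood, neuron, astrocyte, oligodendrocyte, microglia, bone or cartilage, and skeletal muscle.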

Additional observations from a re-analysis of the deposited data

How the results depend on the processing

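No collagen gene had an adjusted p under 0.05 in any of the 12 alternatives or 31 fits without 1 library (smallest adjusted p 0.465 and 0.628), nor did any at 0.1. Unadjusted, 1 collagen passed. None passed with a mean count of at least 50 (Col3a1 is then not tested, 25 of 43 are) or with limma voom. With the mitochondrial rRNA covariate 2 of 43 passed, Col3a1 and Col4a1, beside 1796 of all 19529 genes. The same 2 passed with Meg3 and that share together, beside 1971 of 19529 genes. In the main fit 853 of 19529 genes passed. Leaving out 1 library gave 0 to 2, and 0 in 15 of 31 fits. For Col3a1 the unadjusted p stayed under 0.05 only without control 4, 6, 7 or 9 or deltamethrin 3, 6, 8, 9, 12, 13, 14, 16, 17 or 18. Col10a1 passed unadjusted without control 7 (0.58) or deltamethrin 17 (0.55), and Col19a1 without deltamethrin 4 (-0.20).

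Of all genes 853 passed unadjusted; 1948 did so with no count filter (38214 genes tested), 1796 with the mitochondrial rRNA covariate, 1971 with Meg3 and that share together, and 526 (without control 10) to 1389 (without deltamethrin 9) when 1 library was left out. Besides those, the count without control 4, 7 or 11 was 1338, 1346 and 560, and without deltamethrin 3, 8 or 10 it was 552, 1383 and 1283. The cause of these shifts was not tested. Of all genes 0 passed adjusted, and 1 (Per2, -0.35, adjusted p = 0.0356) with Meg3 and the mitochondrial share as covariates; Meg3 as a covariate, alone and with that share, was chosen after seeing the data.

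The sign turned for Col1a2 (-0.013 with the mitochondrial rRNA covariate, -0.022 with both covariates, -0.040 to 0.090 without 1 library) and Col13a1 (-0.014 with limma voom, -0.0065 with the mitochondrial rRNA covariate, -0.0086 with Meg3, -0.018 with both, -0.047 to 0.066 without 1 library). Without 1 library, the median of the fibrillar genes was -0.0025 to 0.13, of type IV 0.045 to 0.13 and of all collagens -0.012 to 0.088; over the alternatives the ranges were 0.029 to 0.077, 0.060 to 0.13 and -0.0051 to 0.065. Without scaling factors r moved to 0.92 for Col4a1 and Col4a2, 0.58 for Col1a1 and Slc6a13, 0.51 for Col4a1 and Slc6a13, 0.45 for Col1a1 and Cldn5, 0.64 for Col4a1 and Cldn5, and -0.80 and -0.84 for Col1a1 and Col4a1 with the mitochondrial rRNA share. No paired analysis was possible because numbers were given in sample order and pair no libraries. Col6a6 and Col3a1 were read at medians of 9 and 31 counts a library, and the part of depth in their spread was not tested.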
